A study of Mus musculus with 12 samples.

Results

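The 9 genes described here encode enzymes of the pentose phosphate pathway and of NADPH supply outside the mitochondria: G6pdx, Pgls, Pgd, Rpia, Tkt, Taldo1, Tigar, Idh1 and Me1. They were taken by gene name, and each name matched a single gene among the 54532 genes of the deposited table. RNA was sequenced from 12 libraries of mouse colonoids, which are organoids grown from stem cells of the colonic epithelium, with 3 libraries in each of 4 groups. Control colonoids came from Hmox1 fl/fl mice, whose gene for the heme-degrading enzyme heme oxygenase 1 is floxed, with no Cre named in their labels. Colonoids labelled KO came from mice that carry the floxed gene together with Vil1 Cre, a recombinase driven by the villin promoter and active in the epithelium of the small and large intestine. Each genotype was given 200 µM hemin, an oxidized form of heme, or vehicle for 24 h. The mice were 8 to 12 weeks old and on a C57BL/6 background, and all colonoids were kept in medium conditioned by L-WRN cells. For replicate 3 of the hemin-treated colonoids labelled KO, the genotype field gives the floxed allele with Vil1 Cre instead of KO, while its title names KO, and it was kept in that group. The sources used here do not give the number of mice or separate cultures behind each group, so p-values measure only the spread between these libraries, which may be technical, and genotype and culture line cannot be told apart.

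The pentose phosphate pathway branches from glycolysis at glucose 6-phosphate. Its oxidative arm, made of glucose-6-phosphate dehydrogenase, a lactonase and 6-phosphogluconate dehydrogenase, reduces NADP to NADPH, and its nonoxidative arm interconverts sugar phosphates and yields ribose 5-phosphate for nucleotides. Cytosolic malic enzyme and isocitrate dehydrogenase form NADPH by other routes, and epithelial cells use NADPH to regenerate reduced glutathione and thioredoxin, to run biliverdin reductase after heme breakdown, and to build lipids.

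Levels are given in FPKM, fragment counts divided by gene length and by library size, so that genes can be compared per length. Whole fragments could be recovered from FPKM and gene length in every library, with totals between 11648801 (control, hemin, replicate 1) and 25101868 (labelled KO, hemin, replicate 2). The FPKM values were already scaled so that the median ratio to the mean profile, over the 14341 genes above 0 in every library, was 1.01 in each of the 12 libraries. Log2 fold changes are differences of mean log2(FPKM + 1). The added 1 understates changes between groups for genes with low values, and it can shrink or enlarge an interaction. The p-values are from limma, adjusted over the 12740 genes tested. A change passed at an adjusted p under 0.05, and the stricter call also asked for an absolute log2 fold change above 1. All 9 genes entered the test.

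Hmox1 itself was measured first. With vehicle it stood at 7.62, 6.85 and 7.90 FPKM in control colonoids and at 3.14, 2.11 and 2.31 in colonoids labelled KO. With hemin it reached 503, 483 and 382 FPKM in control colonoids and 1279, 1393 and 1271 in those labelled KO. The libraries labelled KO were thus lower with vehicle (log2 fold change -1.27, adjusted p = 1.25e-05) and higher with hemin (1.53, adjusted p = 3.29e-06), so the hemin-treated libraries go against their label at the level of the whole gene. These values count fragments over the full gene and cannot show whether the floxed part was lost. Every direction below that involves KO rests on that label.

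All 12 libraries carried epithelial RNA: the 8 epithelial markers, with Krt8 the most abundant, summed to between 5873 and 10048 FPKM in each. All 8 also passed the low-value filter, which asks for an FPKM of 1 or more in 3 or more libraries. None of the 6 fibroblast and smooth muscle markers and none of the 3 endothelial markers passed it, Col1a2 and Dcn had no fragment in any library, and of the 8 immune markers only Cd68 passed, with a summed level of 0.808 to 5.2 FPKM for the 8. Cd68 was lower under the KO label with vehicle (log2 fold change -0.82) and rose with hemin under that label (1.14). Its other comparisons did not pass. The 8 epithelial markers also moved with the groups: their sum averaged 8809, 8979, 5885 and 8168 FPKM in control vehicle, control hemin, labelled KO vehicle and labelled KO hemin. With vehicle 0 were higher and 4 lower under the KO label (median log2 fold change -0.32), and with hemin 1 was higher and 2 lower (-0.020). Hemin raised 3 and lowered 0 in controls (-0.064) and raised 6 and lowered 2 under the KO label (0.58), and 4 interactions were positive and 0 negative (0.37). Of all tested genes 17.4% were higher and 16.8% lower under the KO label with vehicle, and 19.7% and 14.7% with hemin. Hemin raised 23.2% and lowered 26.7% in controls, and 29.9% and 30.4% under the KO label. Interactions were positive in 13.3% and negative in 10.5%. Cdx2 averaged 202 and 48.7 FPKM with vehicle in controls and under the KO label. Markers of epithelial subtypes moved with the groups as well. The 4 goblet cell markers, led by Tff3, summed to 1138, 1381 and 1324 FPKM in vehicle-treated controls, 1055, 1090 and 740 in hemin-treated controls, 1326, 1275 and 1298 in vehicle-treated libraries labelled KO, and 289, 234 and 271 in hemin-treated ones. With hemin and the KO label all 4 were lower than with vehicle under that label and lower than in the hemin-treated controls. The sum of the 3 enteroendocrine markers, led by Chgb, averaged 25.8, 21.8, 130 and 94.2 FPKM in control vehicle, control hemin, labelled KO vehicle and labelled KO hemin. The sum of the 3 stem cell markers (Lgr5, Ascl2 and Smoc2) averaged 6.52, 1.33, 15.8 and 2.06 FPKM in the same order. All 3 stem cell markers fell with hemin in both genotypes, and with hemin Ascl2 was higher and Lgr5 lower under the KO label, while Smoc2 did not pass. The sum of the 4 colonocyte markers averaged 2361, 5254, 1884 and 3771 FPKM in the same order, most of it Car1, and the 4 did not move together. Aqp8 averaged 44.0, 10.3, 426 and 614 FPKM, and with vehicle Aqp8 and Slc26a3 were higher and Car1 and Krt20 lower under the KO label. The part of these markers in the changes of the 9 genes was not tested, and in bulk RNA fewer cells of a type and less RNA per cell cannot be told apart. Among the libraries, replicate 3 of the hemin-treated controls stood apart, with 17795 genes above 0 against 19294 to 20797 elsewhere and with 11.9% of summed FPKM in mitochondrially encoded genes against 5.63% to 7.7%. The gene Gm23935 held 16.8%, 29.0% and 21.0% of summed FPKM in 3 libraries (control vehicle 1, control hemin 1 and labelled KO hemin 2) and 1.18% to 2.81% in the other 9.

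Hemin raised 5 of the 9 genes in control colonoids and 7 in colonoids labelled KO. Among controls the risers were Idh1, Pgd, Me1, Taldo1 and G6pdx, and 1 gene fell (Rpia), where 23.2% of all tested genes rose and 26.7% fell. Under the KO label only Rpia and Pgls, 2 of the 9, fell and the other 7 rose, where 29.9% of all genes rose and 30.4% fell. With vehicle, 5 of 9 were lower in colonoids labelled KO than in controls (Me1, Idh1, Pgd, Taldo1 and Tkt) and none was higher, against 16.8% of all genes lower and 17.4% higher. With hemin, 5 of 9 were higher (G6pdx, Idh1, Pgd, Tkt and Tigar) and 1 was lower (Me1), against 19.7% higher and 14.7% lower. The interaction, which tests whether the hemin change differed between genotypes, passed for 6 of 9 (Me1, Idh1, G6pdx, Pgd, Taldo1 and Tkt). All 6 were toward a larger rise in colonoids labelled KO on the log2(FPKM + 1) scale. Over all genes the interaction was positive in 13.3% and negative in 10.5%. Without replicate 3 of the hemin-treated controls 4726 genes passed this test in place of 3031, and the members numbered 7 with Pgls, whose interaction was negative. Under the stricter call the members were 4, 6, 1, 2 and 4 of 9 for the 5 comparisons in this order, against 8.11%, 12.9%, 6.8%, 6.01% and 5.13% of all genes. For hemin the median change of the 9 genes on the log2 scale was 0.61 among controls and 1.38 under the KO label, for genotype it was -0.29 with vehicle and 0.23 with hemin, and for the interaction 0.64. The corresponding medians over all tested genes were -0.013, -0.0019, 0.019, 0.037 and 0.016.

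The split into higher and lower genes depended on the scaling of the libraries. Rescaling to TPM, which makes the values of each library sum to the same total, put the median of all tested genes at -0.19 and -0.31 for hemin among controls and under the KO label, at 0.16 and 0.045 for genotype with vehicle and with hemin, and at -0.11 for the interaction. Of the genes passing, 46.4%, 49.6% and 50.9% were higher for hemin in controls, hemin under the KO label and genotype with vehicle as reported, and 21.4%, 20.2% and 64.9% after rescaling. For the interaction the share was 55.9% as reported and 34.3% after rescaling. With Gm23935 left out of the totals the share was 35.2% and 32.1% for hemin in the 2 genotypes and 38.7% for the interaction. On the TPM scale 4 members rose and 2 fell with hemin in controls, against 6.7% and 24.7% of all tested genes, and 5 rose and 2 fell under the KO label, against 9.35% and 37.0%. For genotype with vehicle none was higher and 3 were lower, against 11.6% and 6.26%, and with hemin 1 was higher and 1 lower, against 9.03% and 7.52%. A positive interaction was left for 4 members (Me1, Idh1, G6pdx and, at an adjusted p of 0.0499, Pgd), where 2.45% of all genes were positive and 4.69% negative. With Gm23935 left out of the totals the members counted 5 higher and 2 lower for hemin in controls, against 17.7% and 32.7% of all tested genes, and 6 and 2 under the KO label, against 19.3% and 40.8%. They counted 0 and 4 for genotype with vehicle, against 21.0% and 14.1%, 3 and 1 with hemin, against 16.5% and 17.2%, and 6 positive interactions, against 9.13% of all genes positive and 14.4% negative. With all genes in the totals, and relative to the TPM median of -0.31, the hemin changes under the KO label were 4.57 for Me1, 2.35 for Idh1, 2.05 for Pgd, 1.73 for G6pdx, 1.36 for Taldo1 and -1.39 for Rpia, and none of the member changes that passed as reported turned its direction.

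**Figure D1:**
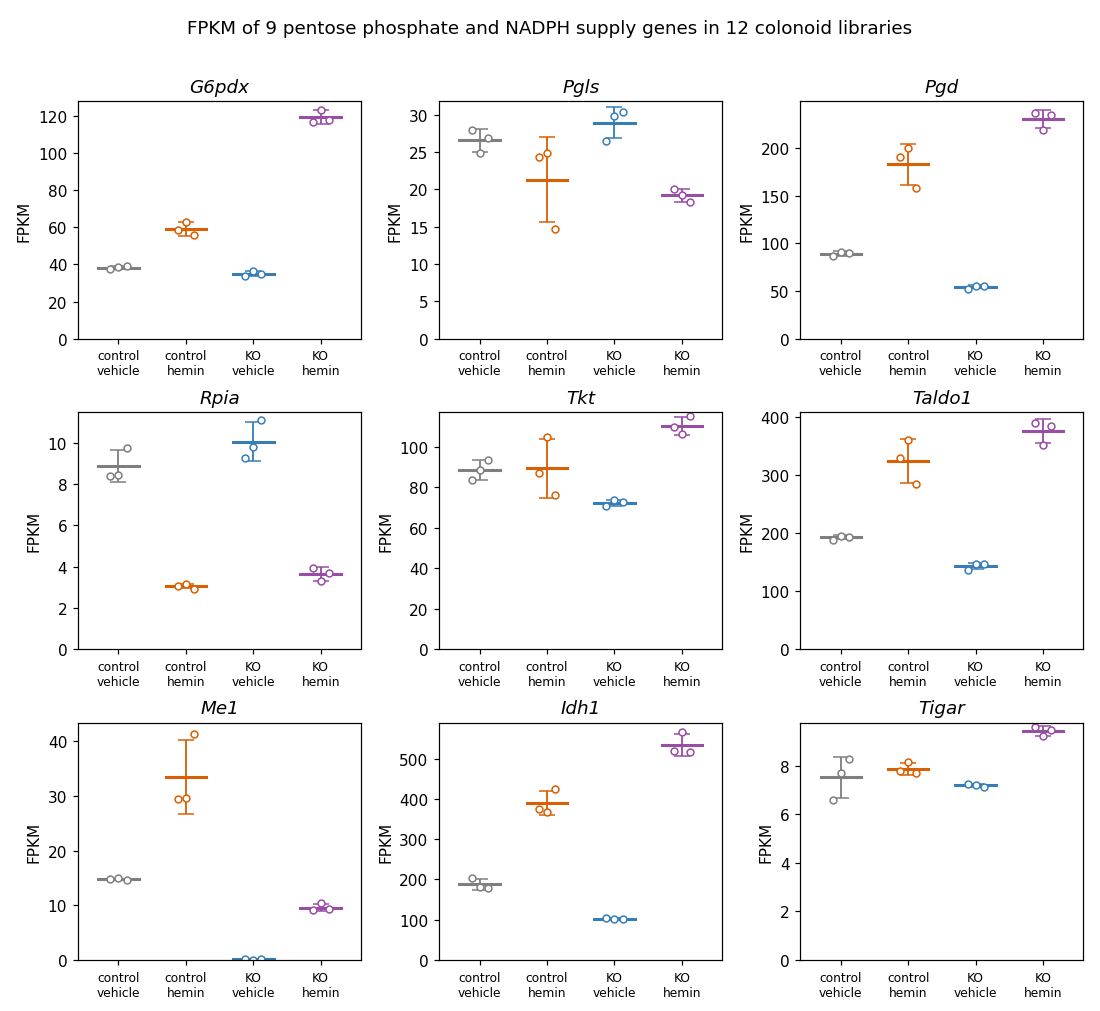
FPKM of each of the 9 genes in the 12 libraries, by group; circles are libraries, horizontal bars group means and whiskers 1 SD, and KO stands for colonoids labelled KO. G6pdx, Pgd, Tkt, Idh1 and Tigar are highest in the 3 hemin-treated libraries labelled KO, the 2 hemin groups of Taldo1 overlap, Me1 is highest in hemin-treated controls and near 0 in vehicle-treated libraries labelled KO, and Rpia is low in all 6 hemin-treated libraries.

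The oxidative arm opens with G6pdx (chrX:74409483-74429194, minus strand, GRCm38), the X-linked gene for glucose-6-phosphate dehydrogenase, which catalyses the committed step and forms the first NADPH. It measured 37.6, 38.5 and 38.9 FPKM in control colonoids with vehicle and 58.7, 62.9 and 55.7 with hemin. Under the KO label it measured 33.8, 36.5 and 34.8 FPKM with vehicle and 117, 124 and 118 with hemin. The 4 groups did not overlap: both hemin groups lay above both vehicle groups, and the 3 hemin-treated libraries labelled KO were about double the hemin-treated controls. Hemin raised the mean 1.54-fold in control colonoids (log2 fold change 0.61, SE 0.058, adjusted p = 9.16e-06) and 3.41-fold in colonoids labelled KO (1.74, SE 0.058, adjusted p = 1.96e-09). The difference between these responses was 1.13 (95% interval 0.95 to 1.31, adjusted p = 5.58e-06). With vehicle the genotypes differed by -0.13 on the log2 scale (unadjusted 95% interval -0.26 to -0.00041), which did not pass (adjusted p = 0.117), although it passed without replicate 3 of the hemin-treated controls (adjusted p = 0.0388) or with only the vehicle-treated groups in the fit (0.0449), and changed sign after rescaling to TPM (0.0165, and -0.067 there without Gm23935). On that scale the hemin change in controls did not pass (0.43, adjusted p = 0.0785), but it did with Gm23935 left out (0.51, adjusted p = 4.91e-05). With hemin G6pdx was 2.02-fold higher in colonoids labelled KO (log2 fold change 1.00, adjusted p = 2.30e-07). G6pdx shares 418 of its 3080 exonic bases with Ikbkg on the opposite strand, which reached 44.5 FPKM, and since the strandedness of the libraries is not settled by the sources used here, fragments from those bases cannot be assigned to either gene with certainty.

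Pgls (chr8:71592176-71601092, plus strand), the lactonase that follows, behaved otherwise. Its FPKM was 27.9, 24.9 and 26.8 in control colonoids with vehicle, 24.3, 24.9 and 14.7 with hemin, 26.5, 29.8 and 30.4 in colonoids labelled KO with vehicle, and 20.0, 19.3 and 18.3 with hemin. Vehicle and hemin libraries did not overlap in either genotype, although the nearest 2 among the controls both round to 24.9. The low value of hemin-treated control replicate 3 set that group apart in spread, with a mean of 21.3 ± 5.74 (SD, n = 3). Hemin lowered Pgls in colonoids labelled KO (log2 fold change -0.56, adjusted p = 0.0101), and in control colonoids the change of -0.34 (95% interval -0.69 to 0.01) did not pass (adjusted p = 0.0995). Without hemin-treated control replicate 3 the control change was -0.10 (adjusted p = 0.23), Pgls was lower in colonoids labelled KO under hemin (-0.34, adjusted p = 0.00281) and its interaction passed (-0.46, adjusted p = 0.00383), so these 3 values rest on that library. Without hemin-treated control replicate 2, whose Pgls was the highest of its group, the control change passed (-0.47, adjusted p = 0.0362), as it did on the TPM scale (-0.54, adjusted p = 0.0418) and there without Gm23935 (-0.46, adjusted p = 0.0354). Pgls shares 776 of its 3770 exonic bases with Fam129c on the same strand, which reached at most 1.17 FPKM.

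Pgd (chr4:149149991-149166771, minus strand) encodes 6-phosphogluconate dehydrogenase, which forms the second NADPH of the arm and releases ribulose 5-phosphate. In control colonoids it was at 86.5, 91.2 and 90.0 FPKM with vehicle and 190, 200 and 158 with hemin. With the KO label it was at 52.4, 55.5 and 54.9 FPKM with vehicle and 237, 219 and 235 with hemin. No group overlapped another, and the group labelled KO was the lowest with vehicle and the highest with hemin. Hemin raised Pgd 2.05-fold in control colonoids (log2 fold change 1.02, SE 0.081, adjusted p = 2.45e-06) and 4.25-fold in colonoids labelled KO (2.07, SE 0.081, adjusted p = 6.92e-09), a difference of 1.04 (adjusted p = 9.21e-05). Colonoids labelled KO had less Pgd with vehicle (-0.71, adjusted p = 4.90e-05) and more with hemin (0.34, adjusted p = 0.00796). The latter call was lost when only the hemin-treated groups entered the fit (adjusted p = 0.0758) and after rescaling to TPM (0.34, adjusted p = 0.263), and it was kept there without Gm23935 (0.28, adjusted p = 0.0214).

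The 3 genes of the arm were present at unequal levels per length. In control colonoids with vehicle the means were 89.2 FPKM for Pgd, 38.3 for G6pdx and 26.5 for Pgls, and with hemin in colonoids labelled KO they were 230, 119 and 19.2. Pgls was therefore the least abundant of the 3 in every group, and the gap between it and Pgd was widest where hemin met the KO label.

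Of the nonoxidative arm, Rpia (chr6:70765720-70792232, minus strand) encodes ribose 5-phosphate isomerase, which makes ribose 5-phosphate. It fell with hemin, the opposite direction to Pgd. Its FPKM was 8.39, 8.44 and 9.75 in control colonoids and 9.26, 9.79 and 11.1 in colonoids labelled KO with vehicle, and 3.06, 3.14 and 2.94 against 3.95, 3.28 and 3.69 with hemin. All 6 hemin-treated libraries were below all 6 vehicle-treated ones. Hemin lowered Rpia by similar amounts in control colonoids (log2 fold change -1.28, SE 0.084, adjusted p = 5.97e-07) and in colonoids labelled KO (-1.25, SE 0.084, adjusted p = 3.67e-07). The interaction was 0.03 with a 95% interval of -0.23 to 0.30 and did not pass (adjusted p = 0.88). The genotypes differed by 0.16 with vehicle (adjusted p = 0.169) and by 0.20 with hemin (adjusted p = 0.0964), neither of which passed. The ratio of Pgd to Rpia FPKM was 10.1 ± 0.806 with vehicle against 59.9 ± 5.29 with hemin in control colonoids, and 5.42 ± 0.41 against 63.4 ± 3.48 in colonoids labelled KO (mean ± SD, n = 3 each).

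Tkt (chr14:30548359-30574720, plus strand) encodes transketolase, which moves carbon between the pentose phosphates and glycolysis. In control colonoids it measured 83.5, 88.3 and 93.7 FPKM with vehicle and 87.2, 105 and 76.0 with hemin, and these ranges overlapped. The libraries labelled KO measured 70.6, 73.7 and 72.7 FPKM with vehicle and 110, 106 and 115 with hemin, which did not overlap. Hemin raised Tkt in colonoids labelled KO (log2 fold change 0.60, SE 0.099, adjusted p = 3.36e-04), while in control colonoids the change was 0.0029 (95% interval -0.22 to 0.22, adjusted p = 0.984) and turned negative after rescaling to TPM (-0.19). The difference between the responses passed (0.60, adjusted p = 0.0105), and on the TPM scale neither it (0.46, adjusted p = 0.439) nor the rise under the KO label (0.27, adjusted p = 0.303) did. With Gm23935 left out of the totals both passed (0.48, adjusted p = 0.0356, and 0.38, adjusted p = 0.00849). The genotype differences of -0.29 with vehicle (adjusted p = 0.0466) and 0.31 with hemin (adjusted p = 0.0314) were near the threshold. The first was lost when any of 10 libraries was left out, with hemin-treated control replicates 2 and 3 the exceptions, at adjusted p between 0.0551 and 0.145. The second was lost without hemin-treated control replicate 1 (adjusted p = 0.0779) or 3 (0.0583), or without replicate 1 (0.073), 2 (0.0506) or 3 (0.103) of the hemin-treated libraries labelled KO. Both were also lost with replicate number as a block (0.0722 and 0.0523), with no filter on low values (0.0845 and 0.0651), on the TPM scale (0.684 and 0.36) and there without Gm23935 (0.124 and 0.0779). On the TPM scale the difference with vehicle shrank to -0.14, while that with hemin stayed about as large (0.32). There without Gm23935 they were -0.22 and 0.26. Without the intensity trend the first was lost (0.0524), and with only the hemin-treated groups in the fit the second (0.136).

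Taldo1 (chr7:141392199-141402968, plus strand) encodes transaldolase, the other carbon-transferring enzyme of this arm. Its FPKM was 189, 196 and 194 in control colonoids with vehicle and 330, 360 and 285 with hemin. Under the KO label it was 137, 147 and 146 with vehicle and 391, 353 and 385 with hemin. Vehicle and hemin groups were fully separate, the vehicle-treated libraries labelled KO were the lowest, and the 2 hemin groups overlapped. Hemin raised Taldo1 1.68-fold in control colonoids (log2 fold change 0.74, SE 0.083, adjusted p = 2.94e-05) and 2.62-fold in colonoids labelled KO (1.38, SE 0.083, adjusted p = 1.64e-07), a difference of 0.64 (adjusted p = 0.00257) that did not pass after rescaling to TPM (0.50, adjusted p = 0.347) but did there without Gm23935 (0.52, adjusted p = 0.00945). With vehicle Taldo1 was lower in colonoids labelled KO (-0.43, adjusted p = 0.00211), a call also lost on the TPM scale (-0.28, adjusted p = 0.348) and kept there without Gm23935 (-0.36, adjusted p = 0.0062). With hemin the difference of 0.21 did not pass (adjusted p = 0.0698), although it did without hemin-treated control replicate 2 (0.29, adjusted p = 0.0151).

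Tigar (chr6:127085116-127109557, minus strand) encodes a bisphosphatase that lowers fructose 2,6-bisphosphate and so directs glucose 6-phosphate away from glycolysis. It was one of the least abundant of the 9 genes. Its FPKM ranged from 6.58 to 8.27 in control colonoids with vehicle, 7.68 to 8.14 with hemin and 7.13 to 7.22 in colonoids labelled KO with vehicle, and the vehicle-treated controls overlapped each of the other 2. The hemin-treated libraries labelled KO were at 9.59, 9.21 and 9.47 FPKM, above every other library. The rise with hemin passed in colonoids labelled KO (log2 fold change 0.35, SE 0.071, adjusted p = 0.0014) and not in controls (0.06, 95% interval -0.09 to 0.22, adjusted p = 0.483), and the difference between the responses did not pass (0.28, adjusted p = 0.0634), although it did without vehicle-treated control replicate 1, the lowest library (0.37, adjusted p = 0.00897). The rise in colonoids labelled KO did not pass on the TPM scale (0.049, adjusted p = 0.857) or there without Gm23935 (0.16, adjusted p = 0.126). With hemin Tigar was higher in colonoids labelled KO than in controls (0.23, adjusted p = 0.0255), a call lost without hemin-treated control replicate 1 (adjusted p = 0.0626) or without replicate 1 (0.0764) or 3 (0.0721) of the hemin-treated libraries labelled KO. It was also lost on the TPM scale (0.25, adjusted p = 0.458), there without Gm23935 (0.20, adjusted p = 0.0936), and with only the hemin-treated groups in the fit (0.23, adjusted p = 0.0671). In each of these the difference itself stayed about as large.

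Outside the pathway, Idh1 (chr1:65158616-65186500, minus strand) encodes the NADP-dependent isocitrate dehydrogenase of cytosol and peroxisomes. It was at 203, 182 and 179 FPKM in control colonoids with vehicle and at 375, 369 and 424 with hemin. Under the KO label it was at 104, 101 and 102 FPKM with vehicle and at 519, 566 and 516 with hemin. The 4 groups were separate, in the same order as for Pgd. Hemin raised Idh1 2.07-fold in control colonoids (log2 fold change 1.05, SE 0.074, adjusted p = 1.03e-06) and 5.2-fold in colonoids labelled KO (2.37, SE 0.074, adjusted p = 1.25e-09), and the responses differed by 1.32 (95% interval 1.09 to 1.55, adjusted p = 1.04e-05). Colonoids labelled KO had less Idh1 with vehicle (-0.86, adjusted p = 4.48e-06) and more with hemin (0.46, adjusted p = 6.42e-04), the latter not passing on the TPM scale (0.46, adjusted p = 0.0867) but passing there without Gm23935 (0.40, adjusted p = 0.00126).

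Me1 (chr9:86581371-86695953, minus strand) encodes cytosolic malic enzyme, which forms NADPH while turning malate into pyruvate, and of the 9 genes it had the largest change in 4 of the 5 comparisons, hemin in controls (Rpia) being the exception. In control colonoids it was at 14.7, 14.9 and 14.7 FPKM with vehicle and at 29.5, 29.7 and 41.3 with hemin. Vehicle-treated libraries labelled KO held 0.111, 0.0902 and 0.139 FPKM, which correspond to 7, 6 and 9 fragments, against 936, 981 and 778 fragments in the vehicle-treated controls. With hemin the libraries labelled KO reached 9.06, 10.4 and 9.35 FPKM, or 502, 938 and 516 fragments. Me1 was thus near 0 in vehicle-treated colonoids labelled KO, and after hemin it was still below every control library. Mean FPKM was 130-fold lower with vehicle in colonoids labelled KO than in controls (log2 fold change -3.83, SE 0.11, adjusted p = 8.27e-10) and 3.49-fold lower with hemin (-1.69, SE 0.11, adjusted p = 6.69e-07). With vehicle its genotype difference ranked 14 from the lowest of 12740 tested genes. Hemin raised Me1 2.26-fold in control colonoids (1.11, adjusted p = 1.33e-05) and 84.5-fold in colonoids labelled KO (3.25, adjusted p = 2.47e-09). The interaction was 2.14 (adjusted p = 6.05e-06), measured on a scale where the added 1 FPKM compresses the lowest group, and it was 4.35 with 0.1 FPKM added instead and 5.17 by limma-voom on recovered fragments. Replicate 3 of the hemin-treated controls was the highest Me1 library, and without it the rise in control colonoids was 0.95 (adjusted p = 6.83e-07).

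Me1 was compared with its chromosomal neighbours after its values were seen. Of 11 other tested genes within 1 Mb of Me1, 1 was lower in colonoids labelled KO with vehicle (Cyb5r4, log2 fold change -0.36, adjusted p = 0.0175) and none was higher. Of all tested genes 16.8% were lower and 17.4% higher. Pgm3, at 8.53 FPKM in control colonoids and 9.81 in colonoids labelled KO with vehicle, did not pass (adjusted p = 0.062). With hemin only Tpbg passed among these neighbours, against 14.7% of all tested genes lower and 19.7% higher. It averaged 4.42 FPKM in controls and 1.05 under the KO label (log2 fold change -1.40, adjusted p = 4.25e-06), the same direction as Me1. With vehicle Tpbg did not pass (-0.30, adjusted p = 0.0739).

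**Figure D2:**
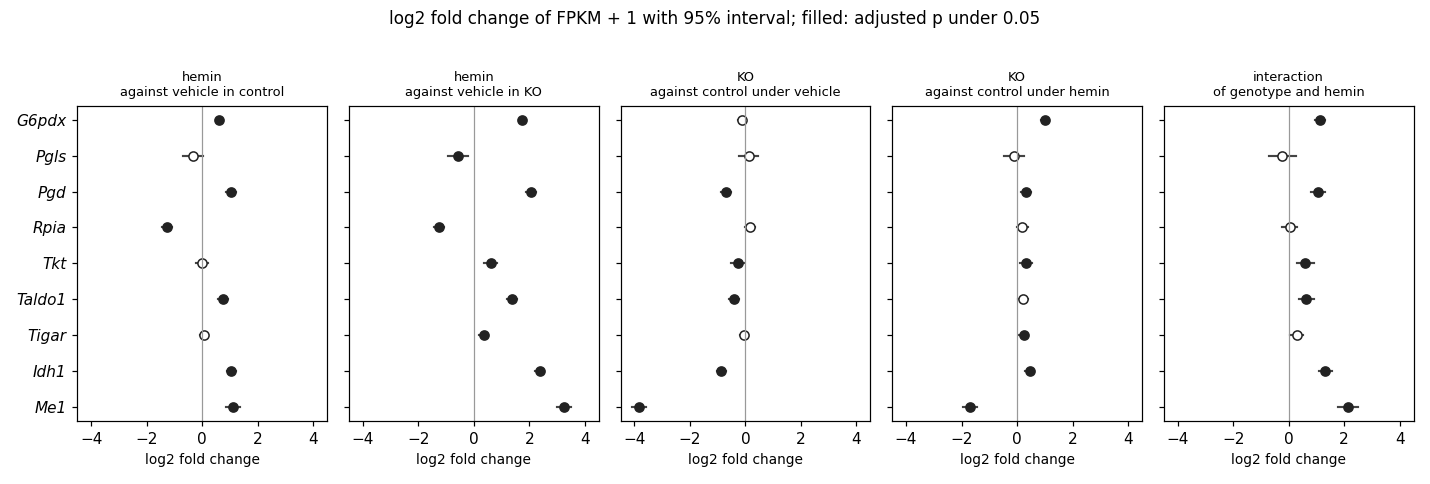
Log2 fold change of FPKM + 1 for the 9 genes in each of the 5 comparisons, with 95% intervals as horizontal lines; filled circles passed at an adjusted p under 0.05, and KO stands for colonoids labelled KO. Me1 has the largest change in size in 4 of the 5 panels, and Rpia falls with hemin by -1.28 in control colonoids and -1.25 in colonoids labelled KO.

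Ranked by mean FPKM, the order of the 9 genes depended on the group. In control colonoids with vehicle Taldo1 (193 ± 3.73, SD, n = 3) and Idh1 (188 ± 12.9) led and overlapped, Pgd (89.2 ± 2.43) and Tkt (88.5 ± 5.09) followed and likewise overlapped, and G6pdx, Pgls, Me1, Rpia and Tigar came after them. With hemin in colonoids labelled KO the order was Idh1 (534 ± 28.2), Taldo1 (376 ± 20.3), Pgd (230 ± 9.46), G6pdx (119 ± 3.6) and Tkt (110 ± 4.36), followed by Pgls, Me1, Tigar and Rpia, and Me1 (9.59 ± 0.684) and Tigar (9.42 ± 0.191) overlapped. With hemin in controls it was Idh1 (389 ± 30.1), Taldo1 (325 ± 37.8), Pgd (183 ± 21.8), Tkt (89.4 ± 14.6), G6pdx (59.1 ± 3.62), Me1 (33.5 ± 6.79), Pgls (21.3 ± 5.74), Tigar and Rpia, with no overlap between neighbours. With vehicle under the KO label it was Taldo1 (144 ± 5.55), Idh1 (103 ± 1.53), Tkt (72.4 ± 1.56), Pgd (54.2 ± 1.64), G6pdx (35.0 ± 1.34), Pgls (28.9 ± 2.08), Rpia, Tigar and last Me1, again without overlap. G6pdx and Tkt exchanged places: the ratio of G6pdx to Tkt FPKM was 0.434 ± 0.0175 with vehicle and 0.668 ± 0.0669 with hemin in control colonoids, and 0.484 ± 0.00939 and 1.08 ± 0.0699 in colonoids labelled KO.

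The 4 NADP-dependent dehydrogenases among the 9 (G6pdx, Pgd, Me1 and Idh1) can be summed as FPKM per library. Their sum was 322 to 342 in control colonoids and 191 to 193 in colonoids labelled KO with vehicle, and 653 to 679 and 878 to 919 with hemin. The groups did not overlap, and Idh1 held most of the sum in each, between 52.4% and 62.4% over the 12 libraries. For Me1 the share was 4.48% ± 0.142 in vehicle-treated and 5.03% ± 0.917 in hemin-treated controls, and with the KO label 0.0592% ± 0.0129 and 1.07% ± 0.0501. For G6pdx it was 11.6% ± 0.548 and 8.9% ± 0.659 among controls, and 18.2% ± 0.57 and 13.4% ± 0.108 under the KO label, so it was smaller with hemin in both genotypes although G6pdx itself rose. These are levels of RNA, and enzyme amounts or NADPH were not measured here.

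Relatives of these enzymes in other compartments were measured alongside. Idh2, the mitochondrial NADP-dependent isocitrate dehydrogenase, fell with hemin where Idh1 rose, from a mean of 38.4 to 13.1 FPKM in control colonoids (log2 fold change -1.49, adjusted p = 2.77e-07) and from 78.0 to 17.8 in colonoids labelled KO (-2.07, adjusted p = 1.20e-08). The ratio of Idh1 to Idh2 was 4.89 ± 0.338 in vehicle-treated and 30.3 ± 6.78 in hemin-treated controls, and with the KO label 1.32 ± 0.0829 and 29.9 ± 1.39. Idh1 and Idh2 were thus nearest to each other in vehicle-treated colonoids labelled KO and farthest apart with hemin in both genotypes. H6pd, the glucose-6-phosphate dehydrogenase of the endoplasmic reticulum, fell with hemin in control colonoids (-0.60, adjusted p = 6.11e-05) and rose in colonoids labelled KO (0.42, adjusted p = 4.83e-04, lost on the TPM scale at 0.437 and kept there without Gm23935 at 0.0191), and the ratio of G6pdx to H6pd went from 5.52 ± 0.0705 to 13.9 ± 1.27 and from 8.12 ± 0.413 to 19.5 ± 1.32. Me2, the mitochondrial malic enzyme, averaged 33.4 and 40.4 FPKM in control colonoids and 45.8 and 51.3 in colonoids labelled KO, so Me2 was not near 0 where Me1 was, while Me3 reached at most 0.288 FPKM. G6pd2, a retrotransposed copy of G6pdx, had 0 fragments in each library.

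**Figure D3:**
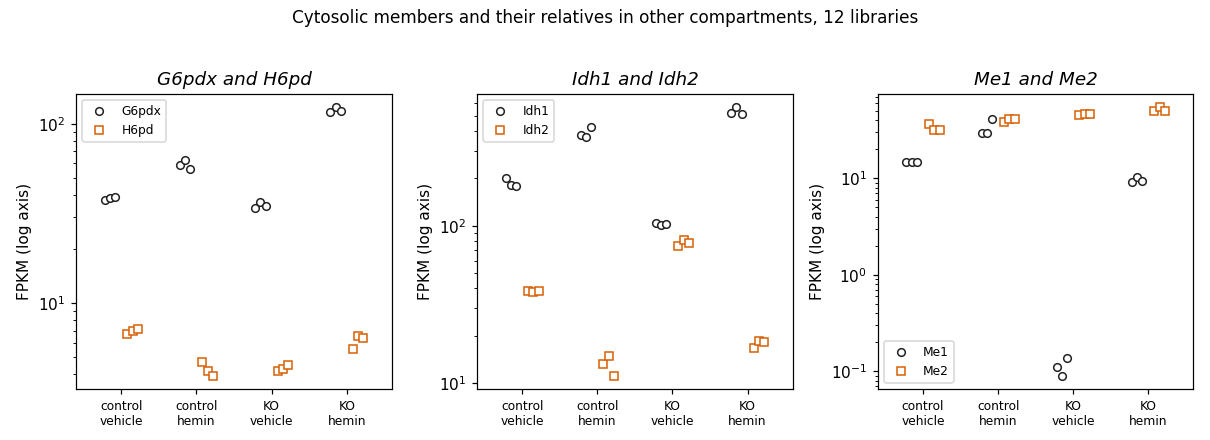
FPKM on a log axis of G6pdx with H6pd, Idh1 with Idh2 and Me1 with Me2 in the 12 libraries, each symbol 1 library and KO standing for colonoids labelled KO. Me1 lies near 0.1 FPKM in colonoids labelled KO with vehicle, where Me2 is at 45.8 on average, and Idh1 and Idh2 separate in both hemin groups.

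Short sequence motifs were searched in the promoter windows of the 9 genes because 5 of them rose with hemin in both genotypes. RefSeq windows of 300 bases (GRCm38.p6), of which 250 lie before the annotated start, were found for 9 of 9 genes, 12 windows in all, since Pgd, Me1 and Idh1 have more than 1. The antioxidant response element core TGACNNNGC, read on both strands, is known as a binding site of NRF2 with small MAF proteins, and TGAGTCA is the AP-1 site. TGACNNNGC occurred in 3 of these 12 windows, 1 each of G6pdx, Me1 and Pgd, and in 12.4% of 32851 windows in the table. TGAGTCA occurred in 1 of 12, that of Me1, and in 5.2% of all windows, and in Me1 the 2 motifs overlap on the same bases. In G6pdx the match begins 57 bases before the start, and in Me1 it begins 6 bases before it. The upstream bases of G6pdx (chrX:74428881-74429130, minus strand) and of Me1 to the end of its match (chr9:86695912-86696164, minus strand) are shown because these genes had the highest log2 fold change between genotypes with hemin and the lowest, with the TGACNNNGC match in capitals. Upstream here refers to the RefSeq start, and the gene spans given above reach beyond it, so the G6pdx bases shown lie wholly and the Me1 bases partly within those spans.
G6pdx: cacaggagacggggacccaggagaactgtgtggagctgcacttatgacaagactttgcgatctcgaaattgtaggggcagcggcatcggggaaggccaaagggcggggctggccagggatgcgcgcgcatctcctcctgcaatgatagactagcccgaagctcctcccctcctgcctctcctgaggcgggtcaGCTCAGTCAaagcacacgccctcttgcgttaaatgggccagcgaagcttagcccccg
Me1: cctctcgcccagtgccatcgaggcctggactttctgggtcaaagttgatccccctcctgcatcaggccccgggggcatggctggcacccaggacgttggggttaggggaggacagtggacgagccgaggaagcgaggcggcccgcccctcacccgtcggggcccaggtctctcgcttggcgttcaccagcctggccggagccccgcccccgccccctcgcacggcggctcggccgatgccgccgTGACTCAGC
In Pgd the match begins 3 bases after the annotated start in its second window, and is shown with 10 bases on either side, at chr4:149166061-149166089 on the minus strand.
Pgd: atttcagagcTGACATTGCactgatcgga
A match is a description of letters in these windows, and no binding was measured here. The windows of Taldo1 and Idh1, which rose with hemin in both genotypes, held neither motif.

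Among 7605 other genes with a mean of at least 5 FPKM, the profiles nearest to each member over the 12 libraries were described by Pearson's r of log2(FPKM + 1), with the 4 groups setting most of the variation. Pgd and Taldo1 were each other's nearest gene (r = 0.998), followed for Pgd by Gabarap (0.997) and Txn1 (0.996). G6pdx was nearest to Abcc4 (0.994), Gsto1 (0.993) and Ecm1 (0.991), Idh1 to Akr1b8 (0.996), Gda (0.994) and Adam9 (0.993), and Me1 to Mall (0.989), Cyp4f14 (0.985) and Ddit3 (0.984). Rpia was nearest to Cdc20 (0.993), Pdia6 (0.993) and Lbr (0.991), Tkt to Itgb4 (0.982), Pgls to Rps15 (0.984) and Tigar to Mgat2 (0.965).

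Of 16 other listed genes of the pentose phosphate pathway, 13 were tested. With hemin 5 rose and 3 fell in control colonoids (median 0.10) and 9 rose and 1 fell in colonoids labelled KO (0.33), and 1 of the 13 met the stricter call in either comparison: Shpk, the sedoheptulose kinase, rose in control colonoids (log2 fold change 1.26, adjusted p = 4.15e-07). Between genotypes 1 was higher and 3 lower with vehicle (median -0.04), 4 higher and 2 lower with hemin (-0.10), and 3 had a positive interaction (median 0.02), H6pd with the largest (1.02, adjusted p = 5.59e-05). Among all tested genes, 23.2% rose and 26.7% fell with hemin in controls, and 29.9% and 30.4% under the KO label. Higher and lower shares were 17.4% and 16.8% between genotypes with vehicle, 19.7% and 14.7% with hemin, and 13.3% and 10.5% for the interaction.

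Of 17 other NADPH sources and genes of NADP supply, 15 were tested. With hemin 1 rose and 8 fell in control colonoids (median -0.36) and 5 rose and 6 fell in colonoids labelled KO (-0.09), with Idh2 and the folate enzymes Mthfd1 (-1.02 and -1.28) and Mthfd1l (-1.18 and -1.25) falling most in both. With vehicle 7 were higher and 5 lower in colonoids labelled KO (median 0.09), led by Aldh1l1, a folate dehydrogenase that forms NADPH, at 25.0 FPKM on average against 1.52 in controls (log2 fold change 3.37, adjusted p = 1.88e-10). With hemin 7 were higher and 2 lower (0.29), Aldh1l1 again leading (3.20, adjusted p = 3.08e-10), and 4 interactions were positive and 1 negative (median -0.06), the largest that of the citrate carrier Slc25a1 (0.99, adjusted p = 0.00943), which did not pass on the TPM scale (0.85, adjusted p = 0.125) but did there without Gm23935 (0.88, adjusted p = 0.0184). For comparison, 23.2% of all tested genes rose and 26.7% fell with hemin in controls, and 29.9% and 30.4% under the KO label. Higher and lower shares were 17.4% and 16.8% between genotypes with vehicle, 19.7% and 14.7% with hemin, and 13.3% and 10.5% for the interaction.

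All 19 listed users of NADPH were tested. With hemin 6 rose and 9 fell in control colonoids (median 0.08) and 9 rose and 7 fell in colonoids labelled KO (-0.11). Of all tested genes 23.2% rose and 26.7% fell in controls, and 29.9% and 30.4% under the KO label. Nqo1, a quinone reductase, rose (3.06 and 4.71) as did the carbonyl reductase Cbr3 (1.73 and 3.36), while Nox1, the colonic NADPH oxidase, fell (-3.06 and -5.75). With vehicle 1 was higher and 12 lower in colonoids labelled KO (median -0.40), and with hemin 6 were higher and 1 lower (0.04). For the interaction 11 were positive and 1 negative (median 0.49), the latter that of Nox1 (-2.69, adjusted p = 7.33e-08). Because 1 FPKM is added, no fall on this scale can exceed log2 of the vehicle level plus 1. The Nox1 interaction therefore depends on its vehicle levels, and alone it cannot show whether the proportional fall differed. Over all tested genes the shares were 17.4% and 16.8% with vehicle, 19.7% and 14.7% with hemin, and 13.3% and 10.5% for the interaction. Gsr, which spends NADPH to reduce glutathione, was higher under the KO label with hemin (0.74, adjusted p = 6.31e-07), at 154 against 91.9 FPKM, the same direction as G6pdx.

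At the glucose 6-phosphate branch point of glycolysis 10 of 14 genes were tested. With hemin 1 rose and 6 fell in control colonoids (median -0.32), Hk2 with the largest change (-1.20, adjusted p = 6.41e-06), and 4 rose and 3 fell in colonoids labelled KO (0.06). Between genotypes 1 was higher and 3 lower with vehicle (-0.23), 4 higher and 0 lower with hemin (0.19), and 5 interactions were positive and 1 negative (0.38). Of 11 regulators known to act on members, 2 rose and 3 fell with hemin in control colonoids (0.09) and 5 rose and 2 fell in colonoids labelled KO (0.04), where Mafk rose (1.31, adjusted p = 1.02e-06) and Trp53 fell (-1.30, adjusted p = 1.31e-08). Nfe2l2, which encodes NRF2, was lower in colonoids labelled KO both with vehicle (-0.82, adjusted p = 1.37e-04) and with hemin (-0.94, adjusted p = 5.21e-05), and did not pass with hemin in either genotype. The regulators counted 2 higher and 3 lower between genotypes with vehicle (-0.11), 5 and 1 with hemin (0.08), and 2 positive and 2 negative interactions (0.30). Beside both lists, 23.2% of all tested genes rose and 26.7% fell with hemin in controls, and 29.9% and 30.4% under the KO label. Higher and lower shares were 17.4% and 16.8% between genotypes with vehicle, 19.7% and 14.7% with hemin, and 13.3% and 10.5% for the interaction.

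Rescaling to TPM, chosen for the lists after seeing the data, changed these counts. With hemin under the KO label they became 2 higher and 1 lower for other pentose phosphate genes, 1 and 7 for other NADPH sources, 6 and 9 for NADPH users, 1 and 4 at the branch point and 2 and 3 for regulators, where 9.35% of all tested genes were higher and 37.0% lower. With hemin in controls they became 3 and 2, 0 and 8, 3 and 8, 0 and 4, and 0 and 3 in the same order, against 6.7% and 24.7%. For genotype they were 1 and 2, 5 and 1, 1 and 2, 1 and 1, and 2 and 1 with vehicle, against 11.6% and 6.26%, and 1 and 0, 3 and 0, 4 and 1, 0 and 0, and 0 and 1 with hemin, against 9.03% and 7.52%. Interactions passed for 1 other pentose phosphate gene, positive, and for 3 positive and 1 negative NADPH users, and for none of the other 3 lists, against 2.45% of all genes positive and 4.69% negative. With Gm23935 left out of the totals the counts for the 5 lists, in that order, were 4 and 2, 1 and 8, 8 and 10, 2 and 4, and 3 and 3 with hemin under the KO label, against 19.3% of all tested genes higher and 40.8% lower, and 5 and 4, 0 and 9, 5 and 9, 1 and 7, and 2 and 3 in controls, against 17.7% and 32.7%. Genotype then gave 1 and 3, 7 and 3, 3 and 10, 1 and 3, and 2 and 1 with vehicle, against 21.0% and 14.1%, and 4 and 5, 7 and 3, 7 and 3, 2 and 0, and 4 and 1 with hemin, against 16.5% and 17.2%. Positive and negative interactions were then 2 and 2 for other pentose phosphate genes, 2 and 3 for other NADPH sources, 9 and 2 for NADPH users, 4 and 1 at the branch point and 1 and 2 for regulators, against 9.13% and 14.4% of all genes.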

How the data were processed

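The authors deposited FPKM values per gene. The submitters' processing notes name fastp, HISAT2 (version 2.0.5), featureCounts (version 1.5.0-p3) and the mm10 build. RNA was poly(A)-selected. Fragments recovered from FPKM and gene length were whole to within 0.001. Genes with FPKM of 1 or more in 3 or more libraries were tested (12740 of 54532). In R 4.3.3 with limma 3.58.1, log2(FPKM + 1) was fitted with 1 mean per group over 12 libraries and an intensity trend, with Benjamini-Hochberg adjustment, and tested on simulated data. Figures were drawn with matplotlib 3.10.9. Alternatives covered the pseudocount, filter, TPM scaling with and without Gm23935, replicate block, trend, samples in the fit, threshold, limma-voom on recovered fragments, and leaving out each library. Named genes were the members, Hmox1, up to 4 genes per list and comparison with the largest change among those passing, the 3 genes most like each member, and markers, relatives, overlapping genes and neighbours. Members and lists were chosen with earlier results of these data known.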

Additional observations from a re-analysis of the deposited data

Results flagged for a closer look

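For 6 of the 9 genes the hemin response differed between genotypes by the interaction in limma, which tests the difference itself, at an adjusted p under 0.05, where 13.3% of all tested genes had a positive and 10.5% a negative one. On the log2(FPKM + 1) scale the hemin change in colonoids labelled KO exceeded that in control colonoids by 2.14 for Me1, 1.32 for Idh1, 1.13 for G6pdx, 1.04 for Pgd, 0.64 for Taldo1 and 0.60 for Tkt. After rescaling to TPM 4 of the 6 passed, and Taldo1 (0.50, adjusted p = 0.347) and Tkt (0.46, adjusted p = 0.439) did not, while with Gm23935 left out of the totals all 6 passed. For Me1 the value was 4.35 with 0.1 FPKM added in place of 1 and 5.17 by limma-voom. For Me1, Idh1, G6pdx, Pgd, Taldo1 and Tkt the genotype difference with vehicle was -3.83, -0.86, -0.13, -0.71, -0.43 and -0.29, where G6pdx did not pass. With hemin it was -1.69, 0.46, 1.00, 0.34, 0.21 and 0.31, where Taldo1 did not pass and Me1 stayed below controls. The comparisons within each genotype use separate libraries, and the direction rests on the KO label. Groups of 3 libraries were not tested for single libraries far from the others.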

How the results depend on the processing

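Of the 45 member changes 32 passed, and 21 of these kept their direction and call under every alternative run apart from the added fold threshold, with none of the 32 reversed. For hemin in controls, hemin under the KO label, genotype with vehicle, genotype with hemin and the interaction, the added fold threshold, by its construction, left 1033, 1648, 866, 766 and 654 genes, with 1 member for genotype with vehicle and 2 with hemin, and a stricter filter that kept genes averaging 5 FPKM or more, and so tested fewer, left 4235, 5114, 2690, 2765 and 1956. After rescaling to TPM 4000 genes passed for hemin in controls, 2269 and 2109 for genotype with vehicle and hemin, and 909 for the interaction, with 3 and 2 members for the genotype comparisons. With only the groups compared in the fit 4688, 8922, 5918 and 2728 genes and 6, 9, 6 and 3 members passed for hemin in controls, hemin under the KO label, genotype with vehicle and genotype with hemin, where 6359, 7694, 4362 and 4383 genes passed as reported, and the cause was not tested. Leaving out 1 library gave 2363 to 4726 genes for the interaction. Values that changed sign did not pass as reported, and the cause was not tested: on the TPM scale G6pdx for genotype with vehicle (0.0165), and, with all fragments and then without Gm23935, the Rpia interaction (-0.088 and -0.055), Tkt (-0.19 and -0.10) and Tigar (-0.11 and -0.034) for hemin in controls and Tigar for genotype with vehicle (0.087 and 0.0072). Leaving out 1 library gave -0.34 to 0.019 for Pgls for genotype with hemin, -0.030 to 0.10 for the Rpia interaction, -0.12 to 0.11 for Tkt and -0.017 to 0.13 for Tigar for hemin in controls, and -0.13 to 0.014 for Tigar for genotype with vehicle. The replicate numbers do not pair the libraries: same-numbered libraries of different groups had a mean r of -0.0425 (18 pairs, -0.327 to 0.179), and 2 of 12 correlated best with their own number. With the replicate block 5975, 7362, 3976, 3947 and 2561 genes and 6, 9, 4, 5 and 6 members passed. Depth limits low values: the fewest fragments behind a member were the 6 to 9 of Me1 in vehicle-treated libraries labelled KO.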
